A study of Homo sapiens with 12 samples.

Results

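GPNMB, a transmembrane glycoprotein of lysosomes and melanosomes, was examined by RNAseq together with the 4 MiT/TFE transcription factors MITF, TFEB, TFE3 and TFEC and with 5 genes of the Rag-folliculin axis, FLCN, FNIP1, FNIP2, RRAGC and RRAGD. These 10 genes were chosen by their known roles and by the size of the GPNMB difference between PBKi and DMSO in these same libraries, so their PBKi against DMSO values are given as a description, without p-values. They are 10 of 54127 genes counted, and 9 of them were among the 14505 genes with enough counts to be tested (at least 10 counts in at least 6 libraries). The libraries came from C4-2 cells, an androgen-responsive prostate cancer (PrCa) line derived from LNCaP. Of 12 libraries, 6 were from cells given DMSO vehicle and 6 from cells given PBKi (HI-TOPK-032, labelled TOPK-32), a small molecule inhibitor of PDZ binding kinase (PBK), at 1 µM for 6 h. Both groups were grown in RPMI with 10% FBS, no genetic alteration is named for either, and they represent 1 cell line. The comparison asks which transcripts differ when PBK is inhibited in these cells.

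MiT/TFE factors are basic helix-loop-helix leucine zipper proteins that bind E-box sequences in the promoters of lysosome, autophagy and pigment genes. In fed cells mTORC1 phosphorylates them at the lysosome and 14-3-3 proteins then hold them in the cytoplasm. Rag GTPases recruit them there, and folliculin (FLCN) with its partners FNIP1 and FNIP2 is the GTPase-activating complex for RagC and RagD (RRAGC and RRAGD). When FLCN is lost, TFE3 and TFEB enter the nucleus, and GPNMB is a widely used transcript of that state. FLCN, its partners and RRAGD are themselves known targets of MiT/TFE factors, so the axis contains a feedback loop. Transcript counts do not report where the factors lie in the cell or whether they are phosphorylated.

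Before the values, the promoters of 4 members are shown because each holds an E-box word of the kind that MiT/TFE factors bind. The words searched, on both strands, were TCACGTG, as found in the CLEAR element of lysosomal genes, with its core CACGTG, and TCATGTG, as found in the M-box of pigment genes. Every CLEAR-type word contains the core. The windows run from 250 bases before to 50 bases after an annotated start in RefSeq (GRCh38.p14), and are printed 5′ to 3′ on the strand of the gene, with the matched word in capitals. All matches lay on the opposite strand, so the capitals read as the reverse complement of the word. GPNMB is at chr7:23246525-23246824 (plus strand), FNIP1 at chr5:131796968-131797267 (minus strand), RRAGC at chr1:38859723-38860022 (minus strand), and the second of 2 FNIP2 windows at chr4:158805589-158805888 (plus strand).
GPNMB: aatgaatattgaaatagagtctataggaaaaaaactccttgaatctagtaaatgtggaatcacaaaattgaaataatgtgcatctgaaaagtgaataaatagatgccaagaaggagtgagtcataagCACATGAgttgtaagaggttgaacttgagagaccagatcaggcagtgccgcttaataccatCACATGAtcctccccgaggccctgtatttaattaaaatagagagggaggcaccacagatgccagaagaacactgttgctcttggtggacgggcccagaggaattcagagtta
FNIP1: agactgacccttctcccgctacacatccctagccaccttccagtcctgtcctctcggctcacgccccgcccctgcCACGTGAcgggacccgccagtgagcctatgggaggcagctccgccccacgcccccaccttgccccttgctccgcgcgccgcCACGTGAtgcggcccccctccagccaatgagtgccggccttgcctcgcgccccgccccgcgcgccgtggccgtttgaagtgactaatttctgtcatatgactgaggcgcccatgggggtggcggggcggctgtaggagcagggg
RRAGC: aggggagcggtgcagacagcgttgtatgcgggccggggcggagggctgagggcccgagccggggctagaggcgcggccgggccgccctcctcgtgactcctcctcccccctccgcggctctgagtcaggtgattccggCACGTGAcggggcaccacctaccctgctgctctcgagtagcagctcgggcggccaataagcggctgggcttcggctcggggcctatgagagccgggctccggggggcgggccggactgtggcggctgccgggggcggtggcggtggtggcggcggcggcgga
FNIP2: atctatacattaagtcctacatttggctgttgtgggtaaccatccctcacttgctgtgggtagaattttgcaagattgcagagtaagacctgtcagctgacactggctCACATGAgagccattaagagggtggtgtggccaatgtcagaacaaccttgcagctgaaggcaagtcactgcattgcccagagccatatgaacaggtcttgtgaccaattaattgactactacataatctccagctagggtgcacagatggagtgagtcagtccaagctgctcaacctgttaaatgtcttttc

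The GPNMB window held TCATGTG at 2 places, from -123 to -117 and from -62 to -56 relative to the start, and held no CLEAR-type word. FNIP1 held TCACGTG at 2 places, from -175 to -169 and from -94 to -88, and RRAGC held it at 1 place, from -112 to -106. FNIP2 held TCATGTG once, from -142 to -136, in its second window. Promoter windows were given for 9 of the 10 members, and 2 of the 9 genes (22.2%) held TCACGTG and 2 (22.2%) held TCATGTG. Over all 27305 genes of the same table, 4.49% held TCACGTG, 8.77% the core CACGTG and 3.59% TCATGTG. Over the 35116 single windows the shares were 3.71%, 7.26% and 2.92%. The members were chosen by their known roles, which include being targets of MiT/TFE factors, so a higher share may follow from that choice. None of the 3 words was in the windows of MITF (3 windows), TFEB (3), TFE3 (1), TFEC (2) or FLCN (1). A match describes letters in a window and is not evidence of binding, and binding sites elsewhere in a gene were not searched.

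**Figure D1:**
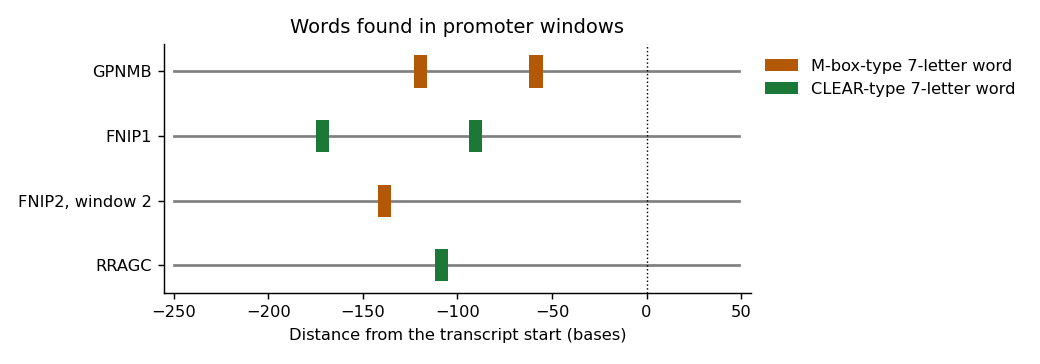
Positions of the E-box words in 4 promoter windows; the horizontal axis is the distance from the annotated transcript start in bases (dotted line at 0), grey lines are the windows, green boxes the CLEAR-type word and orange boxes the M-box-type word. GPNMB and FNIP2 hold only the M-box-type word, FNIP1 and RRAGC only the CLEAR-type word, and all boxes lie upstream of the start.

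Reads on genes ranged from 9663203 to 28029908 per library in DMSO and from 13122415 to 22817803 in PBKi. The first principal component of log2 CPM (read counts scaled to library size) held 61.0% of the variance and separated the groups, and the second held 9.76% and separated replicates 1 to 3 from 4 to 6. Across all genes tested, 20.1% were higher and 21.6% lower in PBKi (edgeR's quasi-likelihood test, Benjamini-Hochberg adjusted p under 0.05), and the median log2 fold change was -0.01. The sources do not say whether replicates were separate cultures, so spread and p-values refer to these libraries and may be partly technical. Of the 10 prostate epithelial markers all were expressed, and their summed level was 5220 to 6200 CPM in DMSO and 3130 to 3960 CPM in PBKi. By edgeR's quasi-likelihood test 5 of them were lower and 1 higher in PBKi, with KLK3, the most abundant and androgen-regulated, at a log2 fold change of -1.39 (adjusted p = 7.68e-08). TMPRSS2 was at -1.24, HOXB13 at -0.60, FOXA1 at -0.34 and KRT18 at -0.21, and FOLH1 was at 0.33. The groups of KRT18 overlapped. Without KLK3 the sums were 2540 to 3060 and 2430 to 2740 CPM.

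Of the 9 members tested, 7 passed the same threshold in the direction of PBKi (background 20.1%) and 1, TFEB, in the direction of DMSO (background 21.6%), while MITF did not pass. In 7 members every PBKi library lay above every DMSO library, as did 10.5% of all genes tested, and in none did every PBKi library lie below, as did 9.68% of all genes. Because the members were chosen on this comparison, nothing is read from these counts. Levels are given as CPM after TMM scaling of library sizes, and levels of different genes are compared only as RPKM, the same value per kilobase of exon. The exon length joins all annotated exons of a gene, so RPKM, and shares and orders built on it, may be too low for genes with many isoforms. In bulk RNA a difference in RNA per cell cannot be told apart from a difference in the number of expressing cells.

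GPNMB (ENSG00000136235, chromosome 7, 23275586 to 23314727, plus strand, in GRCh37 like the other gene positions here) was barely expressed in vehicle. In DMSO replicates 1 to 6 it was measured at 3.83, 2.90, 3.92, 4.01, 2.92 and 4.36 CPM, which rest on 27 to 109 counts per library. In PBKi replicates 1 to 6 it was 135, 188, 203, 153, 112 and 170 CPM, from 1676 to 4793 counts per library. The groups were far apart, since the lowest PBKi library, replicate 5, lay above the highest DMSO library, replicate 6, by more than the whole DMSO range. Mean expression went from 3.66 ± 0.607 CPM without the inhibitor to 160.2 ± 33.6 CPM with it (SD, n = 6 libraries each), which is a log2 fold change of 5.43 (SE 0.15) or 43.1-fold. Relative spread was similar in both groups, with a coefficient of variation of 16.6% in DMSO and 21.0% in PBKi. Leaving out any single library gave 5.35 to 5.51. Of all genes tested 30 had a larger log2 fold change, and 8 of these had an average abundance from edgeR of 3 or more in log2 CPM. Of the 40-base words in its transcripts, the length of the reads, 2.55% also occur in transcripts of other genes, so most of its reads can be placed.

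GPNMB is also abundant in melanocytes and in macrophages and osteoclasts, and markers of these cells were read beside it. Of 11 melanocyte markers 4 had enough counts to be tested. Their summed level was 34.4 to 40.4 CPM in DMSO and 40.1 to 47.4 CPM in PBKi, most of it from RAB27A, a vesicle transport GTPase that many secretory cells express. Without RAB27A the sums were 5.27 to 6.70 and 6.37 to 9.36 CPM. RAB27A rose by a log2 fold change of 0.20 (adjusted p = 0.0167 by edgeR's quasi-likelihood test). PMEL, the melanosome fibril protein, rose by 0.39 (adjusted p = 0.0269 by the same edgeR test). The groups overlapped in both. GPR143, a melanosome receptor, was at 0.48 (adjusted p = 0.0738) and the melanin enzyme TYRP1 at -0.32 (adjusted p = 0.348), and neither passed the same edgeR test. TYR, the enzyme that starts melanin synthesis, and SOX10, a melanocyte lineage factor, were near 0 in both groups. The TYR mean was 0.016 CPM in DMSO and 0.013 CPM in PBKi, and TRPM1 was at 0 in all PBKi libraries. The other untested markers had higher means in PBKi, with overlapping groups. MLANA went from 0.40 to 0.58 CPM, SLC45A2 from 0.17 to 0.33, DCT from 0.044 to 0.13 and OCA2 from 0.0435 to 0.18. Of 16 macrophage and osteoclast markers 3 could be tested, and the sum was 8.92 to 11.4 CPM in DMSO and 11.7 to 15.3 CPM in PBKi. The largest share came from CD68, a lysosomal membrane protein, which rose by 0.68 on the log2 scale (adjusted p = 0.000642 by edgeR's quasi-likelihood test), and without it the sums overlapped at 5.17 to 8.32 and 6.53 to 9.22 CPM. The scavenger receptor CD163 (0.31, adjusted p = 0.283) and the osteoclast protease CTSK (-0.15, adjusted p = 0.351) did not pass the same edgeR test. Below the limit for testing, ACP5, the acid phosphatase of osteoclasts (mean 0.13 CPM in DMSO and 0.43 CPM in PBKi), and LYZ (0 and 0.14 CPM) were higher in every PBKi library than in any DMSO library. OCSTAMP was at 0 in all 12 libraries, MRC1, LYZ and DCSTAMP were at 0 in all DMSO libraries and TYROBP at 0 in all PBKi libraries, and the leukocyte marker PTPRC averaged 0.035 CPM in DMSO and 0.072 CPM in PBKi. The part of these markers in the GPNMB difference was not tested.

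TFE3, the most abundant of the MiT/TFE factors here, was higher in PBKi. TFE3 (ENSG00000068323, chromosome X, 48886237 to 48900936, minus strand) stood at 58.9, 63.2, 56.1, 62.2, 67.6 and 61.4 CPM in DMSO replicates 1 to 6. In PBKi replicates 1 to 6 it was 88.5, 90.4, 88.1, 97.2, 86.9 and 94.7 CPM. No library of one group reached the other. The group means of 61.6 ± 3.92 and 91.0 ± 4.10 CPM (SD, n = 6 each) corresponded to a log2 fold change of 0.57 (SE 0.053), or 1.48-fold. TFE3 shares no 40-base word with transcripts of other genes.

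MITF (ENSG00000187098, chromosome 3, 69788607 to 70017487, plus strand), the factor of melanocyte and osteoclast development, had nearly the same level in both groups. It was 11.4 to 13.3 CPM in DMSO (median 11.9) and 11.1 to 12.9 CPM in PBKi (median 12.3), and the ranges overlapped almost completely. The log2 fold change was 0.00038 (SE 0.068), and its sign differed between replicates 1 to 3 (0.066) and 4 to 6 (-0.060). MITF has several promoters and isoforms, which a count per gene does not separate.

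TFEB (ENSG00000112561, chromosome 6, 41651716 to 41703997, minus strand), the factor best known for lysosome biogenesis, was lower in PBKi on average. In DMSO replicates 1 to 6 it was 10.3, 11.3, 10.2, 12.7, 12.3 and 8.29 CPM, and in PBKi replicates 1 to 6 it was 9.45, 9.52, 8.54, 9.57, 7.44 and 8.48 CPM. The groups overlapped, because DMSO replicate 6 lay below 5 of the 6 PBKi libraries. The log2 fold change was -0.29 (SE 0.10). It was -0.33 to -0.23 with each library left out, and the threshold was no longer passed without DMSO replicate 2, 4 or 5, without PBKi replicate 3, 5 or 6, with only lanes 6 to 8 (-0.17), or within replicates 1 to 3 or 4 to 6. An antisense gene that overlaps TFEB by 115 exon bases had 0 counts in both groups.

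TFEC (ENSG00000105967, chromosome 7, 115575202 to 115799950, minus strand), which is mainly expressed in macrophages, had too few counts to be tested. It had 1 count over the 6 DMSO libraries and 3 counts over the 6 PBKi libraries, of which 2 held any. A total of 3 counts corresponds to 0.0309 CPM over the DMSO group and 0.0293 CPM over the PBKi group, so both groups were at or under that limit and no fold is given.

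Per length, the MiT/TFE transcripts summed to 17.9 ± 1.05 RPKM in DMSO (16.4 to 19.5) and 24.6 ± 1.06 RPKM in PBKi (23.3 to 26.1) (SD, n = 6 each). TFE3 made up 81.8 ± 0.80% of that sum in DMSO and 88.0 ± 0.62% in PBKi. The share of TFEB was 9.0 ± 1.09% in DMSO and 5.35 ± 0.43% in PBKi, and that of MITF was 9.18 ± 0.82% and 6.67 ± 0.40%. For all 3 factors the shares of the 2 groups did not overlap. MITF thus had a lower share at an almost equal level, since the sum it is divided by was larger.

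**Figure D2:**
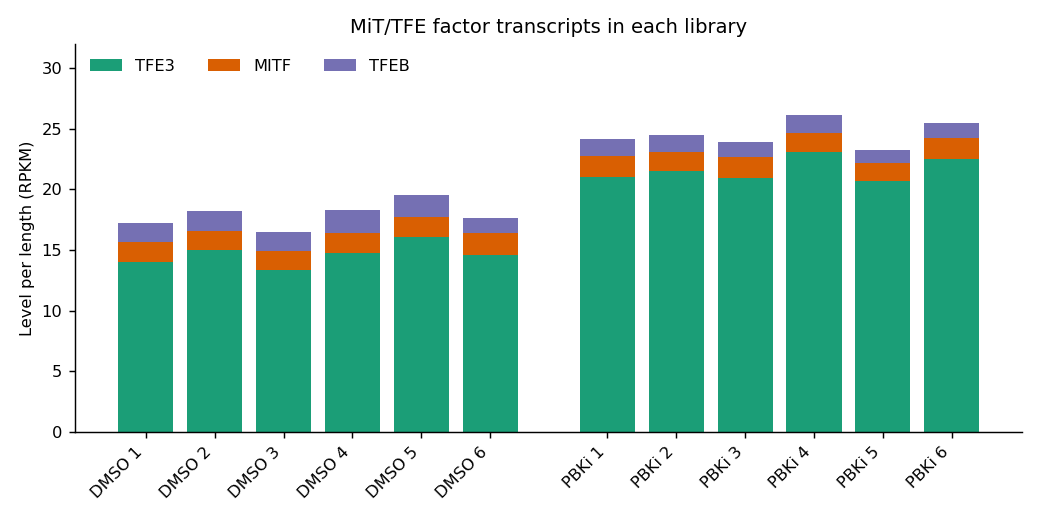
Level per length (RPKM, vertical axis from 0) of TFE3 (green), MITF (orange) and TFEB (purple) stacked for each of the 12 libraries. The 6 PBKi stacks reach 23.3 to 26.1 RPKM and the 6 DMSO stacks 16.4 to 19.5 RPKM, and the difference lies in the green TFE3 part.

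FLCN, the catalytic partner of the folliculin complex, and both of its binding partners were higher in PBKi by nearly the same factor. FLCN (ENSG00000154803, chromosome 17, 17115526 to 17140502, minus strand) was 40.6, 43.6, 41.5, 40.3, 40.6 and 39.2 CPM in DMSO replicates 1 to 6. In PBKi replicates 1 to 6 it was 68.6, 69.3, 80.7, 63.5, 61.8 and 66.7 CPM. The DMSO libraries were very close together (coefficient of variation 3.63%), and PBKi replicate 3 stood highest. The log2 fold change was 0.74 (SE 0.062), or 1.67-fold, and 0.69 to 0.77 with each library left out. A share of 14.1% of its 40-base words also occurs in other transcripts, most of them in an overlapping gene of the same strand that has no row in the files.

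FNIP1 (ENSG00000217128, chromosome 5, 130977407 to 131132710, minus strand) had the words TCACGTG in its promoter shown above. It was 61.6, 67.0, 66.1, 71.7, 56.5 and 78.5 CPM in DMSO replicates 1 to 6 and 106, 111, 126, 110, 103 and 123 CPM in PBKi replicates 1 to 6. The groups did not overlap, and the log2 fold change was 0.76 (SE 0.073), or 1.69-fold. FNIP2 (ENSG00000052795, chromosome 4, 159690178 to 159829202, plus strand) was 20.8, 22.1, 23.1, 25.5, 25.8 and 29.2 CPM in DMSO replicates 1 to 6 and 33.7, 40.6, 46.4, 40.5, 38.4 and 43.1 CPM in PBKi replicates 1 to 6. The groups did not overlap here either, and the log2 fold change was 0.74 (SE 0.086), or 1.67-fold. The balance of the pair moved little, as FNIP2 made up 20.8 ± 2.02% of the summed FNIP1 and FNIP2 level per length in DMSO and 20.4 ± 0.96% in PBKi (SD, n = 6 each), with overlapping ranges.

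RRAGC and RRAGD, which encode the paralogous GTPases RagC and RagD on which the folliculin complex acts, had the largest fold changes of the members after GPNMB. RRAGC (ENSG00000116954, chromosome 1, 39303870 to 39325444, minus strand) was 36.5, 31.1, 32.9, 41.8, 35.4 and 39.2 CPM in DMSO replicates 1 to 6. In PBKi replicates 1 to 6 it was 74.2, 87.8, 89.3, 79.5, 66.7 and 74.9 CPM. The groups stood apart, and the log2 fold change was 1.13 (SE 0.081), or 2.18-fold. Of its 40-base words 23.4% also occur in other transcripts, most of them in an overlapping gene of the same strand without a row in the files.

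RRAGD (ENSG00000025039, chromosome 6, 90074335 to 90121992, minus strand) was 9.96, 8.77, 8.39, 14.4, 9.50 and 13 CPM in DMSO replicates 1 to 6. In PBKi replicates 1 to 6 it was 17.0, 23.4, 22.0, 23.3, 19.5 and 21.1 CPM. The groups did not overlap, although DMSO replicate 4 and PBKi replicate 1 came close. The log2 fold change was 1.00 (SE 0.12), or 2.00-fold. RRAGD shares no 40-base word with other transcripts. The share of RRAGD in the summed RRAGC and RRAGD level per length was 22.6 ± 2.16% in DMSO and 21.2 ± 1.65% in PBKi (SD, n = 6 each), with overlapping ranges.

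**Figure D3:**
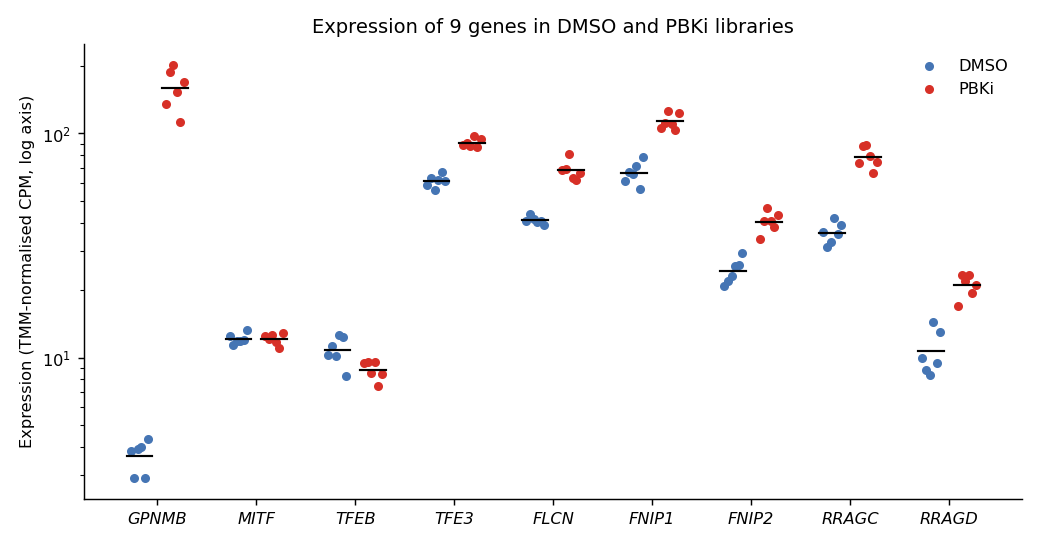
Expression of the 9 tested members in each library (TMM-normalised CPM, logarithmic vertical axis), with DMSO in blue, PBKi in red, replicates 1 to 6 from left to right in each cloud and black lines at the group means. GPNMB goes from 2.90 to 4.36 CPM in DMSO to 112 to 203 CPM in PBKi, 6 other members separate by smaller factors, and the MITF and TFEB clouds overlap.

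Replicates 1 to 3 and 4 to 6 formed separate sets on the second principal component, so each difference was also computed within each set. GPNMB had a log2 fold change of 5.60 in the first set (replicates 1 to 3) and 5.24 in the second (replicates 4 to 6). That of RRAGC was 1.33 and 0.92, that of RRAGD 1.22 and 0.78, and that of FNIP2 0.89 and 0.60. The values of FLCN were 0.82 and 0.68, those of FNIP1 0.83 and 0.70, those of TFE3 0.60 and 0.55, and those of TFEB -0.20 and -0.37. The 7 members that were higher in PBKi were so in both sets, with the larger value in replicates 1 to 3. The difference between the sets passed the threshold for 0 of 14505 genes (interaction term in the edgeR fit, Benjamini-Hochberg adjusted). An unadjusted p under 0.05 was found for 700 genes, about as many as this cut-off passes by chance. With few libraries per set the term has little power, so 0 passing does not show that the sets agree.

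**Figure D4:**
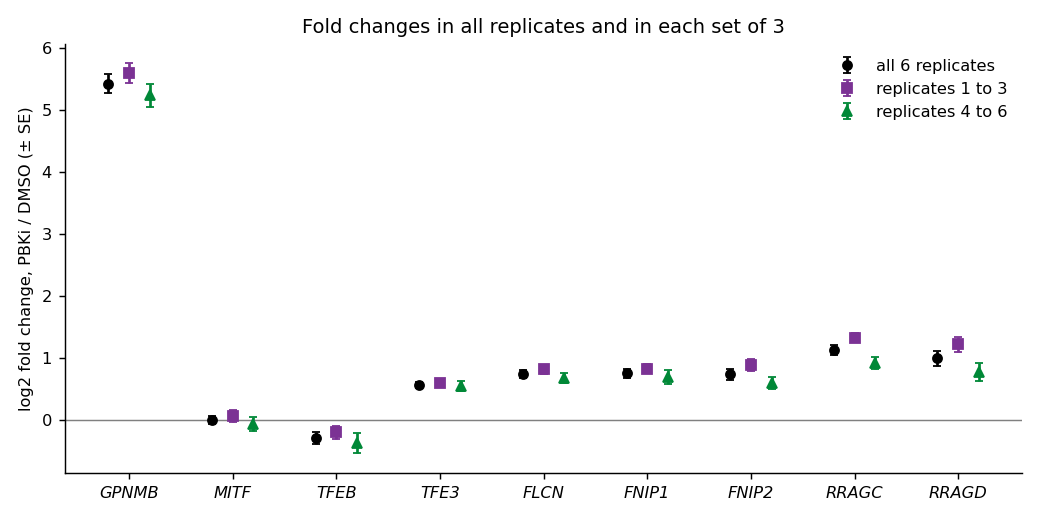
Log2 fold change of PBKi over DMSO (vertical axis, bars are ± SE) of 9 members in all 6 replicates (black circles), replicates 1 to 3 (purple squares) and replicates 4 to 6 (green triangles). GPNMB lies between 5.24 and 5.60, the 6 other members above the line between 0.55 and 1.33, MITF at 0 and TFEB below 0.

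Ordered by level per length in DMSO, TFE3 stood first at 14.6 ± 0.93 RPKM, ahead of FNIP1 at 8.47 ± 0.97, RRAGC at 7.06 ± 0.77 and FLCN at 4.19 ± 0.15 RPKM (SD, n = 6 each). FNIP2 (2.22 RPKM), RRAGD (2.09), MITF (1.64) and TFEB (1.61) followed, and GPNMB (0.619) stood above only TFEC. Neighbours that overlapped were FNIP1 with RRAGC and each neighbouring pair from FNIP2 to TFEB. In PBKi GPNMB came first at 27.1 ± 5.70 RPKM, with a range of 19.0 to 34.3 that overlapped that of TFE3 at 21.6 ± 0.97 RPKM (SD, n = 6 each). RRAGC (15.4 RPKM) and FNIP1 (14.3) overlapped, as did RRAGD (4.13) and FNIP2 (3.68), and FLCN (6.99), MITF (1.64) and TFEB (1.31) overlapped with none of their neighbours. GPNMB therefore moved from the ninth to the first place among the 10 genes, and the 2 pairs RRAGC with FNIP1 and RRAGD with FNIP2 exchanged places within overlapping ranges. Within single libraries, FNIP1 lay above RRAGC in 6 of 6 in DMSO and RRAGC above FNIP1 in 4 of 6 in PBKi. FNIP2 lay above RRAGD in 4 of 6 in DMSO and RRAGD above FNIP2 in 6 of 6 in PBKi.

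Other genes of the pathway were read from lists of known components. CLEAR-type lysosome and autophagy genes, the known targets of the factors above, were mostly higher in PBKi. Of 43 listed genes 42 were tested, 36 (85.7%) rose against 20.1% of all genes, 1 fell, and the median log2 fold change was 0.45 against -0.01 over all genes. In 31 of them every PBKi library lay above every DMSO library, as did 10.5% of all genes tested. The list was drawn up with earlier results of these libraries known, and its count is a description. Of 16 lysosomal hydrolases and their cofactors 13 rose, with NEU1, a sialidase, at 1.19 (SE 0.067, adjusted p = 3.97e-10) and TPP1, a peptidase, at 1.14 (SE 0.058, adjusted p = 1.03e-10), both by edgeR's quasi-likelihood test. NEU1 went from 37.4 ± 2.03 to 85.1 ± 8.84 CPM and TPP1 from 81.3 ± 3.21 to 178 ± 15.4 CPM (SD, n = 6 each). CTSF, a cathepsin, fell by 0.21 (SE 0.058, adjusted p = 0.00646 by edgeR's quasi-likelihood test), although its groups overlapped, and CTSB (0.13, adjusted p = 0.0638) and SGSH (0.14, adjusted p = 0.0728) missed the threshold of the same edgeR test. All 7 listed lysosomal membrane proteins, channels and transporters rose (0.20 to 0.82), although the groups of MCOLN1 and SLC36A1 overlapped. MCOLN1 passed narrowly (0.23, adjusted p = 0.0496 by edgeR's quasi-likelihood test). In replicates 4 to 6 alone MCOLN1 was at 0.080 (SE 0.14) and SLC36A1 at 0.096 (SE 0.083). All 8 tested subunits of the V-ATPase, the proton pump of the lysosome, also rose (0.14 to 0.59), with overlapping groups for ATP6V1A.

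Of 8 autophagy and vesicle tethering genes 7 rose, led by SQSTM1, the autophagy receptor p62. SQSTM1 went from 114 ± 14.6 CPM in DMSO to 506 ± 53.9 CPM in PBKi (SD, n = 6 each), which is a log2 fold change of 2.15 (SE 0.086, adjusted p = 4.29e-12 by edgeR's quasi-likelihood test). SQSTM1 is also a known target of the oxidative stress factor NRF2. UVRAG, at -0.02, did not pass. Among the 3 transcription regulators on the list BHLHE41, a circadian repressor, rose by 0.79 (adjusted p = 9.47e-06 by edgeR's quasi-likelihood test), while PPARGC1A (-0.16) and BHLHE40 (-0.11) did not pass. The promoter table held 25 of the listed genes, and 14 of these (56.0%) had TCACGTG in a window, against 4.49% of all genes. CLEAR-type genes are known by the CLEAR element, which holds this word, so the higher share follows from their choice. The 14 genes with the word had a median log2 fold change of 0.47 (-0.21 to 1.19, 11 higher) and the 11 without it 0.51 (0.30 to 2.15, 11 higher). TPP1 had the M-box-type word instead, and SQSTM1 had none of the 3 words in its 3 windows.

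The remaining Rag, Ragulator and nutrient sensing genes went in both directions, in shares not far from those of all genes. Of 34 genes listed 32 were tested, 5 (15.6%) rose against a background of 20.1%, 9 (28.1%) fell against 21.6%, and the median log2 fold change was -0.07. Without DMSO replicate 5 the number that rose was 9. RRAGA, the RagA partner of RagC and RagD, rose by 0.26 (150 ± 7.94 to 179 ± 4.38 CPM, adjusted p = 0.000305 by edgeR's quasi-likelihood test), whereas RRAGB was at 0.02 (adjusted p = 0.902). Of the 5 subunits of Ragulator, the lysosomal anchor of the Rags, LAMTOR1 rose by 0.27 (adjusted p = 0.00286) and LAMTOR4 fell by 0.25 (adjusted p = 0.00936), both by the same edgeR test, and 3 did not pass. In LAMTOR1 and LAMTOR4 the groups overlapped. SESN2, a stress-induced leucine sensor, rose by 0.67 (SE 0.082, adjusted p = 5.16e-06 by edgeR's quasi-likelihood test). Its paralogs SESN3 and SESN1 fell by 0.47 (SE 0.12, adjusted p = 0.00371) and 0.30 (SE 0.068, adjusted p = 0.00191), each with overlapping groups.

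KICS2, a subunit of the KICSTOR scaffold, rose by 0.58 (SE 0.072, adjusted p = 5.88e-06) and TSC1, a subunit of the TSC complex that restrains RHEB, by 0.42 (SE 0.062, adjusted p = 3.62e-05), both by edgeR's quasi-likelihood test. BMT2, which encodes the S-adenosylmethionine sensor SAMTOR, fell by 0.37 (SE 0.073, adjusted p = 0.000621 by the same edgeR test), with overlapping groups. Of the 5 subunits of GATOR2, which relays amino acid signals, 3 fell and none rose, with values from -0.27 to 0.19. None of the 5 mTORC1 and RHEB genes passed the threshold of the edgeR test (adjusted p from 0.136 to 0.961), and MTOR itself was at 125 ± 16.4 CPM in DMSO and 124 ± 10.1 CPM in PBKi (SD, n = 6 each).

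Regulators of where the MiT/TFE factors lie in the cell were read in the same way. Of 21 genes tested 3 rose (14.3%, against 20.1% of all genes), 6 fell (28.6%, against 21.6%) and the median log2 fold change was -0.04. PPP3CA, a catalytic subunit of calcineurin, the phosphatase that acts on TFEB, fell by 0.46 (926 ± 100.4 to 675 ± 48.7 CPM, SE 0.071, adjusted p = 6.72e-05 by edgeR's quasi-likelihood test), and PPP3CB fell by 0.23 (adjusted p = 0.00203 by the same test). Of 6 genes for 14-3-3 proteins, YWHAG rose by 0.31 (SE 0.047, adjusted p = 5.28e-05) and YWHAB by 0.18 (SE 0.048, adjusted p = 0.00581), YWHAE and YWHAQ fell by 0.16 and 0.21, and 2 did not pass the edgeR test. Of 10 kinases PRKCA rose by 0.47 (SE 0.10, adjusted p = 0.00128 by edgeR's quasi-likelihood test). PRKCD fell by 0.48 (SE 0.072, adjusted p = 4.41e-05) and AKT1 by 0.27 (SE 0.073, adjusted p = 0.00599), both by the same test. The groups overlapped in PPP3CB, YWHAE, YWHAQ and PRKCA.

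Among 6 genes whose proteins bind or cut GPNMB, 5 were tested. NRP1, a co-receptor, rose by 0.58 (55.9 ± 4.12 to 83.1 ± 6.74 CPM, SE 0.064, adjusted p = 1.52e-06), and ADAM10, the protease that sheds GPNMB, rose by 0.21 (SE 0.058, adjusted p = 0.00913), both by edgeR's quasi-likelihood test. The groups of ADAM10 overlapped. ITGB1, an integrin subunit, fell by 0.23 (SE 0.050, adjusted p = 0.00139 by the same edgeR test). The number that fell was 2 without DMSO replicate 1 or 3 or without PBKi replicate 4. ITGA5 (-0.22, adjusted p = 0.0522) and the heparan sulphate proteoglycan SDC4 (0.06, adjusted p = 0.447) did not pass. CD44, a reported receptor of GPNMB, was near 0, at 0.028 CPM in DMSO and 0.012 CPM in PBKi, and was not tested.

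**Figure D5:**
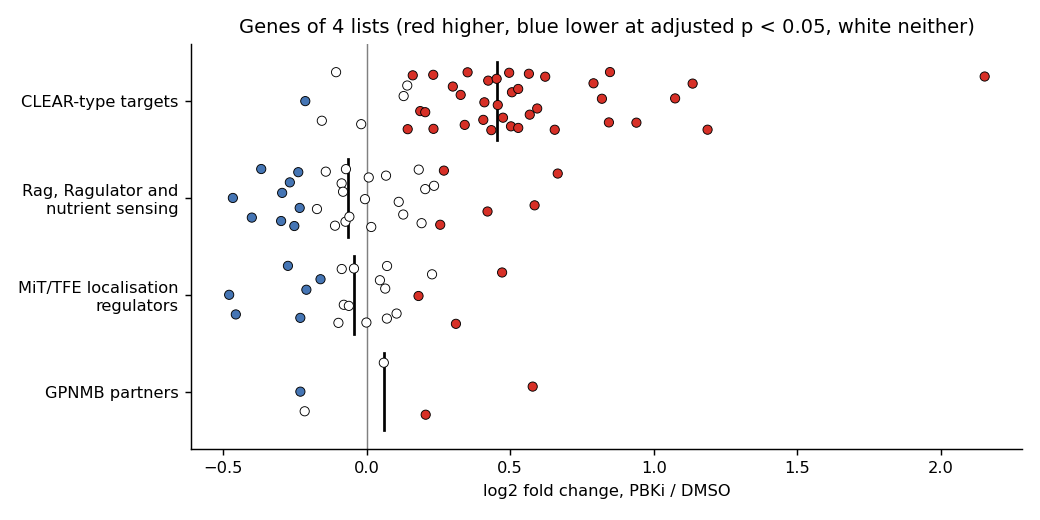
Log2 fold change of PBKi over DMSO (horizontal axis) of each tested gene in 4 lists, red where higher and blue where lower at an adjusted p under 0.05, white where neither, spread vertically for legibility, with a vertical bar at each list median. The CLEAR-type genes lie mostly right of 0 with a median of 0.45, and the Rag and localisation lists lie on both sides with medians of -0.07 and -0.04.

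The genes whose profile over the 12 libraries lay nearest to that of GPNMB were found by the root mean square distance of log2 CPM. Each gene was measured from its own DMSO mean, over 9995 genes whose log2 CPM averaged 3 or more over the libraries. This average differs from the edgeR abundance given above for genes with a larger rise, and it can leave out genes with few counts in DMSO. Because deviations were taken from the DMSO mean, the distance rests mostly on the size of the rise, by which GPNMB was chosen. It therefore picks out genes with large rises and does not show that they vary with GPNMB between libraries. The 5 nearest all rose less than GPNMB, with log2 fold changes from 2.62 to 3.49. NOS3, the endothelial nitric oxide synthase, was nearest at 1.37, followed by IGFBP3, an IGF-binding protein (1.81), ZNF554, a zinc finger protein (1.81), OSGIN1, an oxidative stress response gene (1.85), and FGF13, an intracellular FGF family member (2.00). NOS3 went from 3.74 ± 0.78 to 42.8 ± 8.40 CPM (SD, n = 6 each), with a log2 fold change of 3.49 (SE 0.14) against 5.43 for GPNMB.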

How the data were processed

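RNAseq data of C4-2 cells comprised 12 libraries, 6 per treatment (DMSO or PBKi). Per the labels the authors aligned reads with TopHat2 2.0.4 to GRCh37 and counted them with HTSeq 0.5.3p9. The deposited values are raw counts of reads per gene in 47 lane files. The strand setting is not given in the sources used here. The labels name a miRNeasy kit and flow sorted cells, whereas the study's methods name another kit and no sorting. The siPBK arm was not analysed here.

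Lanes of a library differed only by sampling noise (chi-square divided by its degrees of freedom, 0.993 to 1.02, against 3.83 to 22.9 between libraries of a group) and were summed. Summary rows that name no gene (34.5% to 37.1% of reads per library) were left out. Genes that reached 10 counts in 6 or more libraries were compared by edgeR 4.0.16 (R 4.3.3) with TMM normalisation and the quasi-likelihood test without covariates, with Benjamini-Hochberg adjustment over 14505 genes at 0.05. Log2 CPM used a prior count of 2. Depth was 9663203 to 28029908 reads on genes per library, and counting error is largest for genes with few counts, such as GPNMB in DMSO. The procedure was tested on simulated counts of 14361 genes with 200 changed genes. Of these, 99% at a log2 change of 1 and 76.8% at 0.5 were recovered, and 1.13% of calls were unchanged genes. The simulation gave all genes the same relative spread beyond sampling noise. It held no replicate sets and far fewer changed genes than were called in the data, so these rates may not hold for the real counts.

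The members and lists were chosen with earlier results of these data known. Besides the members, genes named were, in each list, up to 3 with the largest rise and up to 3 with the largest fall among those past the threshold whose mean log2 CPM was 3 or more, and the 5 genes nearest to GPNMB in profile. Further list and marker genes were named after their values were seen, as were the subgroups of the lists. Gene positions and exon lengths came from GENCODE 44 mapped to GRCh37, and promoter windows from RefSeq on GRCh38.p14. Alternatives were DESeq2 1.42.0 (Wald test), RLE scaling, no low-count filter, a replicate block, lanes 6 to 8 only, each replicate set alone, leaving out each library and the core CACGTG.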

Additional observations from a re-analysis of the deposited data

Results flagged for a closer look

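Of 66 groups of 6 values examined (33 genes in DMSO and in PBKi), 4 held a library whose gap to its nearest neighbour passed the 95% critical value of Dixon's test, and chance flags about 5% of groups. PRKCD stood apart in replicate 3 of both groups, at 84.0 CPM in DMSO (the others from 101.5 to 104 CPM) and at 57.6 CPM in PBKi (the others from 71.8 to 78.8 CPM). AKT1 stood apart in DMSO replicate 5 at 206 CPM, with the others from 150.7 to 170.1 CPM. NOS3 stood apart in DMSO replicate 5 at 2.27 CPM, with the others from 3.73 to 4.54 CPM. None of these values belonged to a member.

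Among the rows of the files that name no gene, the share of ambiguous reads, which fall on more than 1 gene, had a median of 3.09% over PBKi libraries (3.04% to 3.14%) and was 2.83% to 2.94% in DMSO. Its part in the results was not tested.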

How the results depend on the processing

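In every alternative run the same 7 members were higher in PBKi, and the log2 fold change of GPNMB ranged from 5.24 to 5.60. TFEB was the 1 member lower in PBKi, and that count was 0 with lanes 6 to 8 only and in each replicate set alone (0 to 1 without each library). The log2 fold change of MITF, 0.00038 in all replicates, was -0.060 in replicates 4 to 6 and -0.016 to 0.037 without each library. RRAGC moved to 1.33 and 0.92 in replicates 1 to 3 and 4 to 6.

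The genes lower among the GPNMB partners were 2 rather than 1 under DESeq2, RLE factors, no low-count filter, the replicate block and lanes 6 to 8 only, 0 in replicates 4 to 6, and 1 to 2 without each library. In replicates 1 to 3, 10 Rag list genes were higher. Without each library that count was 5 to 9, the 9 without DMSO replicate 5. In replicates 4 to 6 alone, 1273 genes were higher and 1206 lower in all (3352 and 3187 in replicates 1 to 3 alone, with as many samples). In the same replicates 4 to 6, 3 Rag list genes were lower, and 1 localisation regulator was higher and 2 lower. There, 29 CLEAR-type genes were higher, in place of 36, and 0 were lower, and 1 GPNMB partner was higher. The cause was not tested. With the core CACGTG in place of TCACGTG, 2 members held the word in both cases, and the share of all windows went from 3.71% to 7.26%, since the core is part of the longer word.

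Samples with the same replicate number correlated by 0.0887 to 0.299 in their deviations from group means, and 8 of 12 libraries correlated best with their own number. As 1 pair was under 0.1, the numbers were not taken to pair the samples. All of the correlations were above 0, however, and the main fit models no structure shared by replicate number. With the replicate block, 3485 genes were higher and 3803 lower in place of 2921 and 3126, 8 Rag list genes and 5 localisation regulators were higher in place of 5 and 3, and the calls of the members were the same.

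Depth limits GPNMB in DMSO (27 to 109 counts) and leaves TFEC and CD44 untested.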
